A study of Mus musculus with 6 samples.

Results

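Genes of the mouse mitochondrial genome that encode subunits of the respiratory chain and of ATP synthase were followed in melanoma grafts of the foot and of the skin. They are COX1, COX2, COX3, CYTB, ND1, ND2, ND4, ND5, ND6 and ATP6. The members were found by their symbols in the deposited count table, and they are 10 of its 45777 genes and 10 of the 37 genes of the mitochondrial genome listed there. Those 37 are 13 protein-coding genes, 2 rRNAs and 22 tRNAs. ND3, ND4L and ATP8, the other protein-coding genes, are given only beside the members.

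Tumors of B16F10, a melanoma line of the mouse, were grown in the hind footpad or the flank skin, and RNA of 3 footpad tumors and 3 flank skin tumors was sequenced, with 1 library per tumor. All 6 tumors share the cell line and, in the sample labels, a Foxn1-/- host aged 8 weeks, so no group without the Foxn1 deletion entered the comparison. The study's methods describe grafts of these cells in C57BL/6J hosts and, in other experiments, in Foxn1-null hosts, and the host of the sequenced tumors is not named in its text. Foxn1-/- mice lack a thymus and therefore most T cells, while other immune cells remain. Nothing in the labels says whether a footpad and a flank tumor came from the same mouse or whether tumors of 1 site came from separate mice, so the p-values below measure only the spread between these tumors. The study describes simultaneous implants at both sites, and a figure legend on these data gives n = 3 mice. A footpad and a flank tumor may therefore share a mouse. The main tests between the sites do not use such a pairing, because the labels do not give it.

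The respiratory chain passes electrons through protein complexes of the inner mitochondrial membrane and pumps protons, and ATP synthase uses the proton gradient to make ATP. Most subunits are encoded in the nucleus, but a small set of core subunits is encoded by mitochondrial DNA, which a cell holds in many copies. Both strands of that circular genome are transcribed into long precursors, from which the mRNAs and rRNAs are released, in many places at the tRNAs that lie between them. ND6 is the only protein-coding gene that is read in the opposite direction to the others.

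Some members share bases with a neighbor or with a copy in the nuclear genome, which bears on how reads can be assigned. ND5 and ND6 lie tail to tail on opposite strands and overlap by 14 bases. In the lines below (GRCm38, chrM:13528-13565, plus strand, for ND5 and chrM:13552-13589, minus strand, for ND6) the capitals mark the bases that the genes share, each written 5′ to 3′ on its own strand.
ND5: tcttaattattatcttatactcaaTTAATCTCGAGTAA
ND6: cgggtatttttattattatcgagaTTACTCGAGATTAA
ATP8 and ATP6 are read from the same strand and overlap by 43 bases, marked in capitals at the end of ATP8 (chrM:7915-7969, plus strand) and at the start of ATP6 (chrM:7927-7981, plus strand).
ATP8: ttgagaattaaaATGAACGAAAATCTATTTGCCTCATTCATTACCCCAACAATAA
ATP6: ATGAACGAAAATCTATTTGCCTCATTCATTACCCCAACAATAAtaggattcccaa
A stranded count could separate ND5 from ND6, but no strand setting separates ATP8 from ATP6 within those 43 bases. The counting program, its strand setting and its treatment of reads that match several places are not given in the sources used here.

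Annotated pseudogenes of the nuclear genome held a close copy of 9 of the 10 members, and no such copy was found for ND1. For 4 members the aligned part of the closest copy was identical. All 681 aligned bases of COX2, 678 of ATP6, 783 of COX3 and 876 of ND4 matched Gm28661, Gm10925, Gm28437 and Gm28439, which lie on the minus strand of chromosome 1 between position 24611535 and position 24615565 of GRCm38. The identical part covered 99.6% of COX2, 99.6% of ATP6, 99.9% of COX3 and 63.6% of ND4. COX1 matched Gm13340 on chromosome 2 over its 1545 bases with 37 mismatches, an identity of 97.6%. The stretch below, from COX1 (chrM:5361-5401, plus strand) and from its copy (chr2:22589574-22589614, minus strand), is shown because it holds the first mismatches, which are in capitals and are C54A and A60G, with the COX1 base first and the position counted from 1 at the first base of COX1.
COX1: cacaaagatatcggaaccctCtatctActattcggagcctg
Gm13340: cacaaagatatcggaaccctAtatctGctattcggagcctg
The closest copies of ND2, ND5, ND6 and CYTB had identities of 96.7%, 95.2%, 93.6% and 92.9% over the aligned part. No pseudogene named here had a row in the count table. By these closest copies, the counts of COX2, COX3, ATP6 and ND4 are the most uncertain of the set, because a read of the identical stretch cannot be placed from its sequence. Only the closest copy of each gene was compared. COX1 had 3 copies, and shorter identical stretches in the more distant copies were not sought.

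The reads counted on genes ranged from 46529649 to 66364366 per tumor, and the footpad tumors of replicates 1 and 3 were the shallowest libraries. Pmel, a pigment cell gene, was present at 2399 to 5043 CPM in every tumor, where CPM are counts divided by library size, scaled by edgeR's TMM factors. Footpad tumor 2 stood apart by markers of keratinocytes and skeletal muscle, which summed to 569 and 1004 CPM there against at most 25.7 and 190 CPM in the other tumors. Of 17210 genes that passed the filter on low counts, 4.87% passed an adjusted p of 0.05 between the sites in the quasi-likelihood test of edgeR, adjusted after Benjamini and Hochberg over all of them. Of the same genes, 3.43% passed in the direction of higher values in the footpad and 1.44% in the other direction. All 10 members passed the filter.

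The members took a share of the reads that varied 9.4-fold among footpad tumors, while the means of the sites differed 3.54-fold. They held 5.78%, 0.615% and 3.05% of all counted reads in footpad tumors 1, 2 and 3. They held 1.38%, 0.768% and 0.518% in flank tumors 1, 2 and 3. Footpad tumors 1 and 3 stood above every flank tumor, and footpad tumor 2 lay between the second and the third flank tumor, so the sites overlapped. The highest flank share was 2.67 times the lowest. The mean was 3.15% ± 2.58 (SD, n = 3) in footpad tumors and 0.89% ± 0.446 (SD, n = 3) in flank tumors, a difference of 2.26 percentage points with p = 0.3 in a two-sided exact permutation test, where 3 tumors against 3 cannot go below 0.1. Counting error was small beside this spread: the widest 95% Wilson interval of a tumor's share spanned 0.0134 percentage points, and it covers counting error only. Without footpad tumor 1 the difference was 0.944 percentage points, and without footpad tumor 2 it was 3.53, the lowest and the highest value on leaving out 1 tumor (exact permutation p = 0.6 and p = 0.2).

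**Figure D1:**
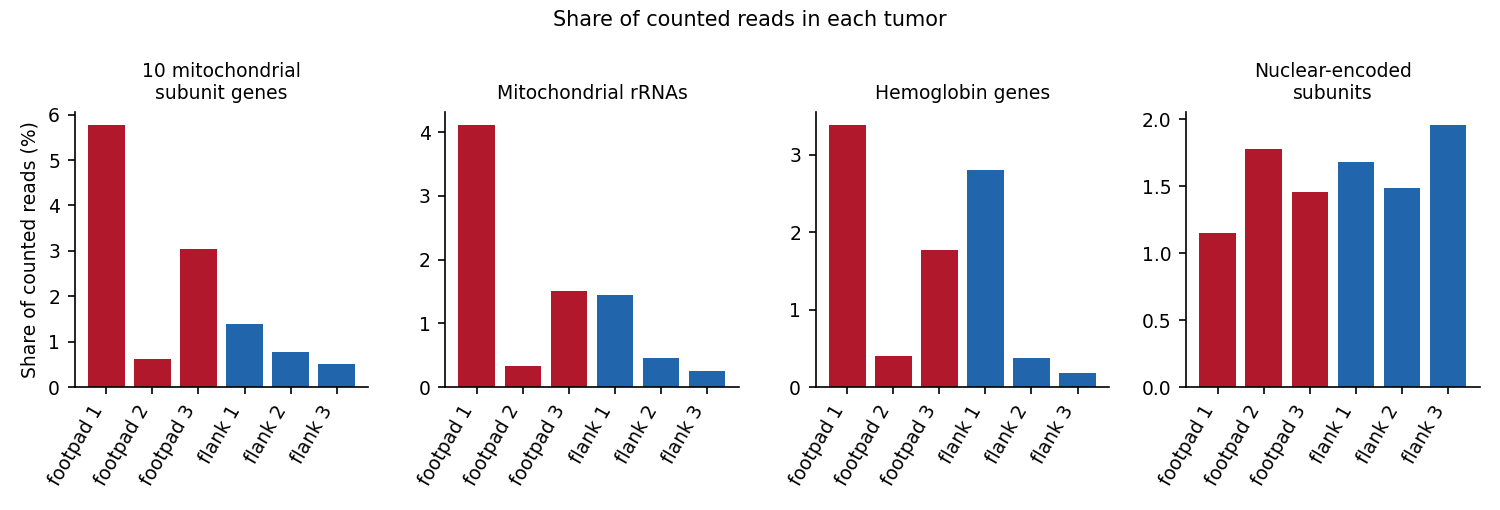
Share of counted reads (%, each panel with its own axis from 0) in each of the 6 tumors, red for footpad and blue for flank, taken by the 10 members, by the 2 mitochondrial rRNAs, by the 4 hemoglobin genes in the table and by the 84 nuclear-encoded subunits. Footpad tumor 1 is highest in the first 3 panels and lowest in the last.

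Other abundant RNAs also varied between tumors. The 4 hemoglobin genes in the table took 3.39%, 0.399% and 1.77% of the reads in footpad tumors 1, 2 and 3, and 2.81%, 0.372% and 0.186% in flank tumors 1, 2 and 3. Footpad tumor 1 was highest and flank tumor 3 lowest for the hemoglobin genes and for the members alike, but flank tumor 1 exceeded footpad tumor 3 for the hemoglobin genes and not for the members. Rn7s1 and Rn7s2, which encode the RNA of the signal recognition particle, together took between 3.77% and 7.83% of the reads, with the highest share in flank tumor 1. When the reads of hemoglobin genes, of Rn7s1 and Rn7s2, of all abundant RNAs listed or of the whole mitochondrial genome were taken out of the denominator, the difference between the sites ranged from 2.33 to 2.52 percentage points, each with an exact permutation p of 0.3. Footpad tumors 1 and 3, the shallowest libraries, had the highest member shares. Within the flank, depth and share were ordered differently: the deepest tumor, flank 3 with 63143022 reads, had the lowest share and the next deepest, flank 1 with 62501844 reads, had the highest.

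Complex I, the NADH dehydrogenase that feeds electrons into the chain, has 5 members in the set. ND1, a subunit of its membrane arm, stood at 2280, 252 and 1145 CPM in footpad tumors 1, 2 and 3 and at 277, 315 and 172 CPM in flank tumors 1, 2 and 3. Footpad tumor 2 lay within the flank range. The log2 fold change of footpad over flank was 2.27 ± 0.69 (SE), the highest of the members, with an unadjusted p of 0.0117 and an adjusted p of 0.0963 by edgeR, which did not pass. DESeq2 gave ND1 the same fold change with an adjusted p of 0.0182. It was the only member that DESeq2 called, where DESeq2 called 15.9% of all genes.

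ND2, ND4 and ND5, which form proton-pumping parts of the same membrane arm, had the same order of tumors, with footpad tumors 1 and 3 on top, then flank tumors 1 and 2, then footpad tumor 2 and flank tumor 3. ND4 stood at 567, 42.2 and 201 CPM in footpad tumors and at 113, 56.8 and 27.3 CPM in flank tumors. ND5 stood at 835, 57.9 and 313 CPM in footpad tumors and at 183, 78.4 and 36.3 CPM in flank tumors. ND2 stood at 200, 16.5 and 84.4 CPM in footpad tumors and at 43.8, 23.3 and 9.77 CPM in flank tumors. Their log2 fold changes were 2.04 for ND4, 2.02 for ND5 and 1.97 for ND2, with adjusted p of 0.196, 0.217 and 0.2 by edgeR.

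ND6, the complex I subunit encoded on the other strand, was the scarcest member and the one with the widest spread. Its counts were 920, 39 and 365 reads in footpad tumors and 470, 212 and 74 reads in flank tumors. On the CPM scale these were 20.6, 0.568 and 7.45 against 8.1, 3.62 and 1.18, and footpad tumor 2 was the lowest of the 6 tumors. The highest footpad value was 36.3 times the lowest. The log2 fold change was 1.15 ± 1.09 (SE) with an adjusted p of 0.546 by edgeR, and it was -0.11 without footpad tumor 1.

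CYTB, the cytochrome b subunit of complex III, which hands electrons on to cytochrome c, stood at 1318, 117 and 586 CPM in footpad tumors and at 314, 192 and 96.9 CPM in flank tumors. Its log2 fold change was 1.75 ± 0.78 (SE), with an adjusted p of 0.214 by edgeR, and footpad tumor 2 lay between the second and the third flank tumor.

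Complex IV, the cytochrome c oxidase that reduces oxygen, has its 3 core subunits in the set. COX1, the subunit that holds the site of oxygen reduction, was the most abundant member. It stood at 42236, 3348 and 21139 CPM in footpad tumors and at 10290, 4465 and 3095 CPM in flank tumors. The fold change was 3.74, or 1.90 ± 0.84 (SE) on the log2 scale, with an adjusted p of 0.207 by edgeR. COX2, which receives electrons from cytochrome c, stood at 3201, 302 and 1628 CPM in footpad tumors and at 807, 484 and 316 CPM in flank tumors, and footpad tumor 2 was the lowest of the 6. Its log2 fold change was 1.67, with an adjusted p of 0.21 by edgeR. COX3, a structural core subunit, stood at 7374, 1541 and 3889 CPM in footpad tumors and at 2435, 1296 and 1279 CPM in flank tumors. COX3 had the smallest spread among footpad tumors, with a highest value 4.79 times the lowest, and a log2 fold change of 1.35 with an adjusted p of 0.174 by edgeR.

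ATP6, the subunit of ATP synthase that forms part of its proton path, stood at 2312, 270 and 896 CPM in footpad tumors and at 449, 235 and 194 CPM in flank tumors. Footpad tumor 2 lay between the first and the second flank tumor. The log2 fold change was 1.99 ± 0.71 (SE), with an unadjusted p of 0.0244 and an adjusted p of 0.138 by edgeR. ATP8, with which it shares 43 bases, had a log2 fold change of 1.94.

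**Figure D2:**
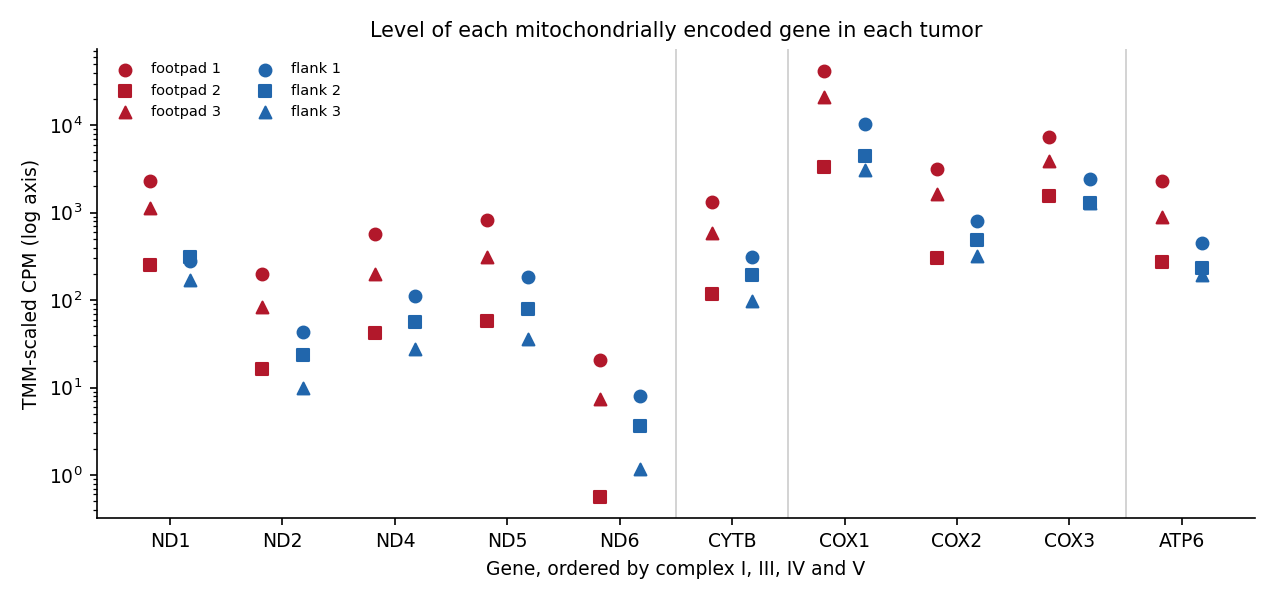
CPM on a log axis (TMM-scaled) of each member in each tumor, with red symbols for footpad tumors, blue symbols for flank tumors and 1 shape per replicate number, which was not taken to pair the tumors. Footpad tumor 1 is the highest for 10 of 10 members, and footpad tumor 2 lies within the flank range or, for COX2 and ND6, below it.

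No member passed an adjusted p of 0.05 between the sites by edgeR (0 of 10) or by limma on FPKM (0 of 10). By edgeR 4.87% of all genes passed. By limma 780 of the 17210 genes passed on log2(FPKM + 1) and 957 on log2(FPKM + 0.1). DESeq2 called 1 member, where it called 15.9% of all genes. All 10 log2 fold changes were above 0, with a median of 1.93, and the median over all genes tested was -0.00425. A log2 fold change above 1.93 was found for 6.12% of all genes. At an unadjusted p under 0.05 there were 4 members, ND1, ATP6, COX3 and ND4, all toward higher values in the footpad, as were 14.8% of all genes. The members are not independent of each other, since most are read from a shared precursor. In no member did every footpad tumor exceed every flank tumor (0 of 10) or fall below every flank tumor (0 of 10), while 17.5% and 14.9% of all genes separated in these directions. In bulk libraries such as these, fewer cells of a type and less RNA per cell cannot be told apart.

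The spread between tumors of a site was wide for these genes. The biological coefficient of variation that edgeR fitted, which is the variation between tumors beyond counting error, had a median of 0.641 over the members, with a range from 0.45 for COX3 to 0.87 for ND6, and a median of 0.257 over all genes tested. The approximate 95% interval of the log2 fold change ran from 0.67 to 3.87 for ND1, from -0.05 to 3.86 for COX1 and from -1.4 to 3.69 for ND6. Each fold change moved with footpad tumors 1 and 2. Without footpad tumor 1 the median log2 fold change of the members was 0.90, and 0 members passed, as did 0.173% of all genes tested. Without footpad tumor 2 it was 2.43, and 3 members passed by edgeR, ND1 with an adjusted p of 0.0199, ATP6 with 0.0414 and COX2 with 0.0433, where 5.6% of all genes tested passed.

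**Figure D3:**
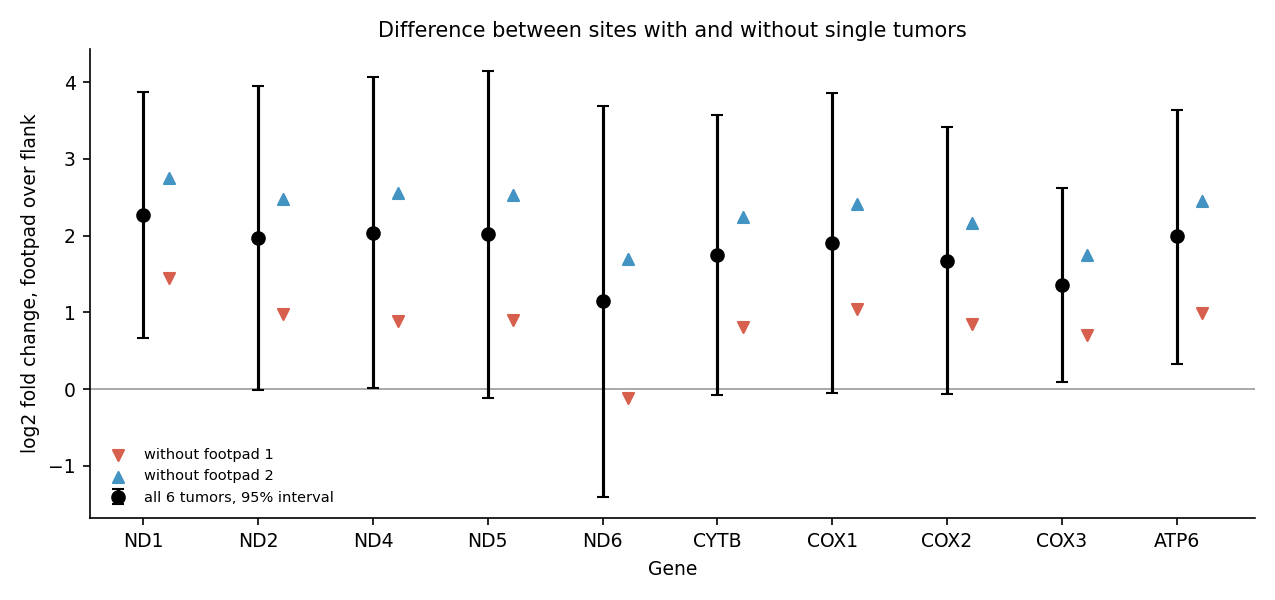
Log2 fold change of footpad over flank for each member by edgeR, with black points and approximate 95% intervals from all 6 tumors, downward triangles without footpad tumor 1 and upward triangles without footpad tumor 2. ND6 without footpad tumor 1 is the only point below 0, at -0.11, and the intervals of ND1, ND4, COX3 and ATP6 lie above 0 before adjustment.

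The order of the members per gene length was the same in all 6 tumors. By the deposited FPKM (fragments scaled for transcript length and library size), COX1 was the highest, with 22419, 2036 and 12465 FPKM in footpad tumors and 5454, 2804 and 1781 FPKM in flank tumors. COX3, COX2, ATP6, ND1, CYTB, ND5, ND4, ND2 and ND6 followed in that order. The median over the 6 tumors fell from 4129 FPKM for COX1 to 2195 for COX3, 827 for COX2, 456 for ATP6, 284 for ND1 and 194 for CYTB. It was 62.0 for ND5, 53.5 for ND4, 28.1 for ND2 and 9.76 for ND6. Each gene exceeded the next in 6 of 6 tumors, but some neighbors were close: ND5 was 1.01 to 1.23 times ND4, COX1 was 1.1 to 2.91 times COX3, and ATP6 was 1.05 to 2.27 times ND1. The order held although a single member varied between the 6 tumors by 5.32-fold (COX3) to 32.5-fold (ND6).

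**Figure D4:**
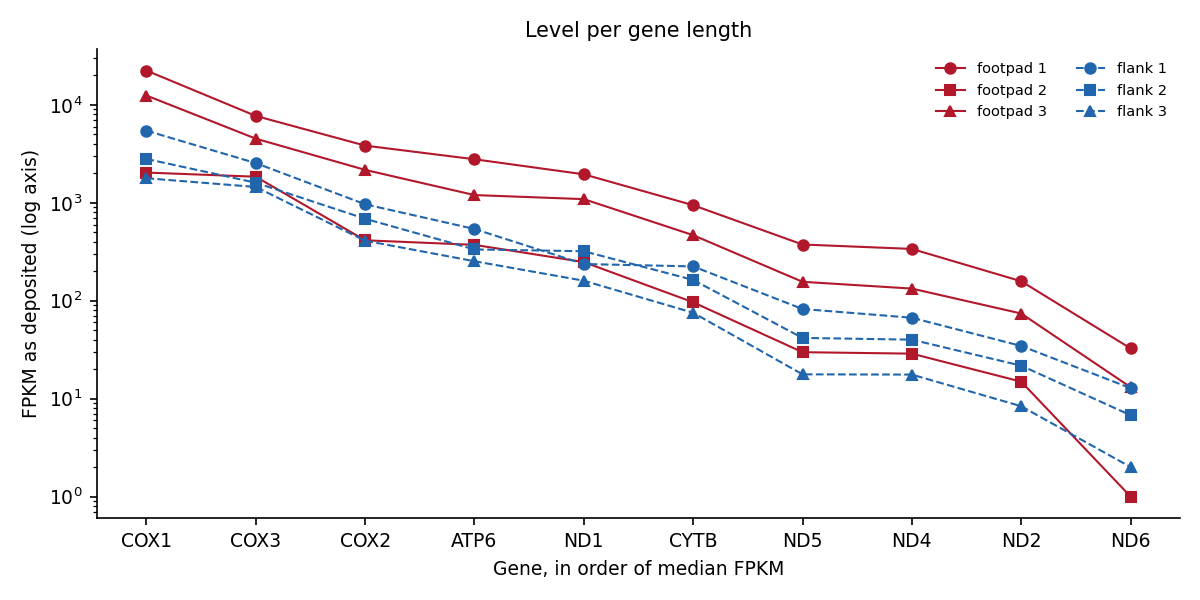
Deposited FPKM on a log axis of each member in each tumor, in order of the median over the 6 tumors, with solid red lines for footpad and dashed blue lines for flank. Within each tumor the value falls from COX1 to ND6.

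Members that come from 1 precursor were far from equal in level. COX1 was 129 to 213 times ND2 in FPKM, although both lie on the same strand. ND1 was 12.4, 16.6 and 14.7 times ND2 in footpad tumors and 6.87, 14.7 and 19.1 times ND2 in flank tumors. The copies in the nuclear genome differ between members, as given above, and their part in these ratios was not tested.

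The share of each member in the summed member reads was compared next. COX1 made up 70.0%, 56.3% and 70.7% of the member reads in footpad tumors and 69.0%, 62.5% and 59.2% in flank tumors. COX3 made up 12.2%, 25.9% and 13.0% in footpad tumors and 16.3%, 18.1% and 24.5% in flank tumors. COX3 was thus highest in footpad tumor 2 and flank tumor 3, the tumors with the lowest member share, and lowest in footpad tumors 1 and 3, the tumors with the highest. COX3 is a member with an identical nuclear copy over nearly its whole length. Of the members whose copies are also identical, ATP6 made up 3.83%, 4.54% and 3.0% in footpad tumors and 3.01%, 3.28% and 3.71% in flank tumors, and COX2 between 5.07% and 6.77% in the 6 tumors, with its lowest share in footpad tumor 2. ND4, whose copy is identical over 63.6% of its length, made up 0.94%, 0.71% and 0.674% in footpad tumors and 0.755%, 0.795% and 0.522% in flank tumors, and so was lowest in flank tumor 3, where COX3 was high. The part of the copies in the share of COX3 was not tested. ND1 made up 1.86% in flank tumor 1 and between 3.29% and 4.41% in the other 5 tumors. ND6 made up 0.0229% ± 0.0124 (SD, n = 3) in footpad tumors and 0.0425% ± 0.0174 (SD, n = 3) in flank tumors. For no member did the share of the member reads separate the sites without overlap, and the adjusted p was 0.8 for each of the 10 members (two-sided exact permutation tests, Benjamini-Hochberg over 10). With 3 tumors against 3 this does not show that the proportions are alike.

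**Figure D5:**
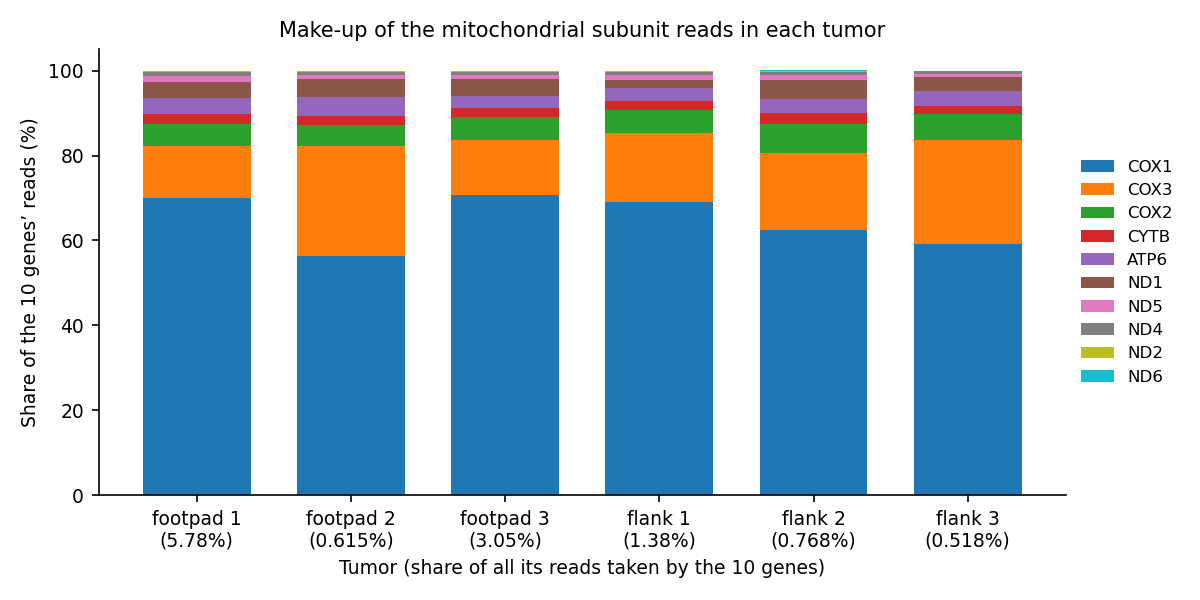
Stacked bars of the share of each member in the summed reads of the 10 members (%), per tumor, with the share of all reads taken by the members in parentheses under each name. COX1 takes 56.3% to 70.7% and COX3 12.2% to 25.9%.

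ND6 was compared with the members of the other strand within each tumor, a measure that no scaling of the libraries moves. The log2 ratio of its reads to the summed reads of the other 9 members was -11.5, -13.4 and -12.0 in footpad tumors and -10.8, -10.9 and -12.1 in flank tumors. The means were -12.3 ± 0.958 (SD, n = 3) and -11.3 ± 0.703 (SD, n = 3), a difference of -0.978 with an exact permutation p of 0.3 and an adjusted p of 0.45 over 6 such single-value tests. Set against ND5 alone, its tail-to-tail neighbor, the sites did not overlap. In FPKM, ND5 was 11.5, 29.7 and 12.0 times ND6 in footpad tumors and 6.45, 6.16 and 8.86 times ND6 in flank tumors, and the difference of the log2 count ratio of ND6 to ND5 was -1.18, with an exact permutation p of 0.1, the smallest that 3 tumors against 3 allow. Against CYTB alone the difference was -0.874, with an exact permutation p of 0.3. ND6 had 39 reads in footpad tumor 2, and reads of ND5 that were counted on ND6, or the reverse, were not measured here.

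The subunits of the same complexes that the nucleus encodes were read from the same fit. Of 84 such genes, 83 were tested, and 0 were called higher and 1 lower in the footpad, where 3.43% and 1.44% of all genes were called. The fold change was below 0 for 77 of them, with a median log2 fold change of -0.30, and for 8659 of all 17210 genes tested. An unadjusted p under 0.05 was found for 8 of the 83, where 25.3% of all genes had one. The 84 subunits took 1.15%, 1.78% and 1.46% of the reads in footpad tumors and 1.68%, 1.49% and 1.96% in flank tumors, so the tumor with the highest member share, footpad 1, had the lowest share here. The gene called was Cox7a1, the subunit of cytochrome c oxidase typical of muscle and heart. It stood at 1.28, 1.49 and 0.898 CPM in footpad tumors and at 10.8, 2.99 and 5.73 CPM in flank tumors, with a log2 fold change of -2.41 ± 0.50 (SE) and an adjusted p of 0.04 by edgeR. With each tumor left out in turn, the log2 value ran from -2.76 to -1.84, and Cox7a1 passed only without flank tumor 2 (adjusted p = 0.027 by edgeR, range 0.027 to 0.146). Fewer genes of any kind passed in most of these fits: 0.173%, 5.6% and 0% without footpad tumors 1, 2 and 3, and 2.19%, 3.06% and 0.257% without flank tumors 1, 2 and 3. Cox4i2, an isoform of another oxidase subunit, had the highest fold change at 0.84 on the log2 scale, with an adjusted p of 0.413 by edgeR.

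By complex, the median log2 fold change of the nuclear-encoded subunits was -0.25 over 36 genes of complex I, -0.21 over 4 genes of complex II, which has no mitochondrially encoded subunit, -0.24 over 9 genes of complex III, -0.40 over 16 genes of complex IV and -0.34 over 18 genes of ATP synthase. Complex I ran from -0.68 for Ndufb2 (adjusted p = 0.0944 by edgeR) to 0.17 for Ndufs7. Complex III ran from -0.59 for Uqcrq to 0.01 for Uqcrc1, and ATP synthase from -0.55 for Atp5g2 to -0.04 for Atp5a1. Complex II ran from -0.28 for Sdhd to -0.15 for Sdha.

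The distance between both sets was taken within each tumor as the mean log2 CPM of the members less that of the nuclear-encoded subunits. It was 4.17, 0.0347 and 2.76 in footpad tumors and 1.24, 0.925 and -0.362 in flank tumors. In footpad tumor 2 the means of both sets were nearly level, and in footpad tumor 1 they were farthest apart. The difference between the sites was 1.72, with an exact permutation p of 0.3 and an adjusted p of 0.45 over the 6 single-value tests. It was 0.796 without footpad tumor 1 and 2.86 without footpad tumor 2.

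Genes that act on mitochondrial DNA and its transcripts were also read from lists. None was called by edgeR among 10 genes of mitochondrial transcription, 15 of DNA maintenance, 20 of RNA processing and stability, 11 of translation factors, 78 mitochondrial ribosomal proteins, 39 assembly factors and 10 regulators of biogenesis, where 4.87% of all genes were called in either direction. Over these lists together, 22 of 183 genes had an unadjusted p under 0.05, where 25.3% of all genes did, and DESeq2 called 8, where it called 15.9% of all genes. Neither share exceeded that over all genes. The median log2 fold changes of these lists lay between -0.26 and -0.14. Polrmt, the RNA polymerase of mitochondria, stood at 25.0, 23.6 and 23.9 CPM in footpad tumors and at 16.8, 20.1 and 23.6 CPM in flank tumors, a log2 fold change of 0.26 with an adjusted p of 0.35 by edgeR. Polg, the catalytic subunit of the mitochondrial DNA polymerase, stood at 87.1, 70.6 and 84.2 CPM in footpad tumors and at 127, 132 and 109 CPM in flank tumors. Its log2 fold change was -0.61, with an adjusted p of 0.0553 by edgeR, and all footpad tumors lay below all flank tumors.

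Ptcd3, a protein of the mitochondrial ribosome with RNA-binding repeats, had the smallest adjusted p of these lists, 0.0502, with a log2 fold change of -0.59. It stood at 103, 110 and 124 CPM in footpad tumors and at 160, 168 and 180 CPM in flank tumors, without overlap. Gabpa, a transcription factor of nuclear genes for the respiratory chain, had a log2 fold change of -0.53 and an adjusted p of 0.0634 by edgeR. Pprc1, a coactivator of the PGC-1 family, had the highest fold change of the regulators, 0.69, with an adjusted p of 0.215. Among the other lists, the lowest and highest log2 fold changes were -0.65 for Mterf1a, 0.42 for Exog, 0.17 for Tbrg4, -0.40 for Mrrf and 0.10 for Mtfmt, -0.63 for Mrpl24 and 0.32 for Mrpl4, and -0.62 for Coa3 and 0.64 for Cox18, none of which passed the edgeR test.

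The remaining genes of the mitochondrial genome followed the members in part. The rRNAs mt-Rnr1 and mt-Rnr2, of the small and large subunit of the mitochondrial ribosome, together took 4.12%, 0.332% and 1.51% of the reads in footpad tumors and 1.44%, 0.459% and 0.246% in flank tumors. Footpad tumor 3 and flank tumor 1 were nearly equal here, while their member shares were 3.05% and 1.38%. Per 100 member reads there were 71.3, 53.9 and 49.4 rRNA reads in footpad tumors and 104, 59.8 and 47.4 in flank tumors (exact permutation p = 0.7). The log2 fold changes were 1.52 for mt-Rnr1 and 1.45 for mt-Rnr2, with adjusted p of 0.417 and 0.383 by edgeR. The library kit that the methods name removes rRNA before sequencing. The labels also name a TruSeq RNA kit, so whether that step was used on these libraries is not settled here. If it was, the rRNA counts are what was left after it.

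ND3, a complex I subunit, stood at 337, 129 and 235 CPM in footpad tumors and at 96.9, 121 and 141 CPM in flank tumors, with a log2 fold change of 0.97 and an adjusted p of 0.125 by edgeR. In contrast to the members it was lowest in flank tumor 1. Its closest nuclear copy, Gm28438 on chromosome 1, matched over 345 bases with 1 mismatch, an identity of 99.7%. The ND3 count was 0.559%, 2.17% and 0.786% of the member reads in footpad tumors and 0.649%, 1.69% and 2.69% in flank tumors. Like the share of COX3, this was highest in footpad tumor 2 and flank tumor 3. The part of the copy in these values was not tested. ND4L, which overlaps the start of ND4, stood between 0.383 and 7.02 CPM, with a log2 fold change of 1.06 and an adjusted p of 0.545 by edgeR.

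Marker genes of other cell types were summed in each tumor. The 5 neutrophil markers, S100a8, S100a9, Csf3r, Cxcr2 and Retnlg, summed to 333, 6.28 and 163 CPM in footpad tumors and to 18.8, 28.1 and 4.22 CPM in flank tumors. Like the members, they were highest in footpad tumors 1 and 3 and lowest in flank tumor 3. By edgeR 0 of 5 passed and 5 had an unadjusted p under 0.05, as did 25.3% of all genes. DESeq2 called 1 of the 5, where it called 15.9% of all genes. The 5 erythroid markers, the hemoglobin genes and Alas2, ranged from 3950 to 36241 CPM in footpad tumors and from 1924 to 30896 CPM in flank tumors, with 0 of 5 past the test and 0 at an unadjusted p under 0.05. No marker of either list was at 0 in any tumor. The keratinocyte and skeletal muscle markers, highest in footpad tumor 2, had 0 of 6 and 0 of 7 past the edgeR test and 5 and 0 at an unadjusted p under 0.05. DESeq2 called 1 keratinocyte marker and 0 muscle markers, where it called 15.9% of all genes. In flank tumor 1 the keratinocyte genes Krt1 and Krt5 and the muscle genes Myh4 and Tnnt3 were at 0, and Myh4 was also at 0 in footpad tumor 3. The 6 fibroblast markers summed to 2677, 2712 and 3682 CPM in footpad tumors and to 76.8, 402 and 103 CPM in flank tumors, without overlap. By edgeR 5 of 6 passed, where 4.87% of all genes did, and DESeq2 called 6, where it called 15.9% of all genes. The 5 endothelial markers summed to 163, 107 and 171 CPM in footpad tumors and to 57.4, 77.0 and 68.4 CPM in flank tumors, also without overlap. Their sum, like the members, was highest in footpad tumors 1 and 3, but with footpad tumor 3 on top. Kdr alone was lower in footpad tumor 1, at 25.0 CPM, than in footpad tumor 2, at 29.0 CPM. By edgeR 2 of 5 passed, and DESeq2 called 4, where it called 15.9% of all genes. The 6 macrophage markers summed to 86.5, 105 and 103 CPM in footpad tumors and to 22.8, 89.3 and 50.5 CPM in flank tumors, with 1 of 6 past the test, and 0 of 3 adipocyte markers tested passed, with 1 at an unadjusted p under 0.05. The 7 melanocyte markers ranged from 9797 to 17934 CPM in footpad tumors and from 14342 to 24928 CPM in flank tumors, with footpad tumor 1 the lowest, 0 of 7 past the edgeR test and 1 at an unadjusted p under 0.05. The part of these cells in the member values was not tested.

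Outside the mitochondrial genome, the genes whose log2 CPM over the 6 tumors was most like the mean of the members were Tet2, Angptl4, Txnip, E2f2 and Lcp1, with Pearson's r from 0.99 to 0.994 among 9467 genes of at least 10 CPM on average. With 6 tumors and this many genes the coefficients are a description of these libraries. Angptl4, a secreted regulator of lipoprotein lipase, stood at 44.0, 7.32 and 26.4 CPM in footpad tumors and at 12.8, 9.11 and 4.93 CPM in flank tumors. Its mean was 25.9 CPM in footpad tumors and 8.96 CPM in flank tumors, so Angptl4 reached 10 CPM on average only through the footpad tumors. Tet2, an enzyme that oxidizes methylated cytosine, stood at 77.1, 28.4 and 50.9 CPM in footpad tumors and at 38.3, 33.0 and 24.6 CPM in flank tumors. The hemoglobin genes had r from 0.868 to 0.913 with the members, and S100a8 and S100a9 had 0.952 and 0.958. S100a8 and S100a9 averaged 45.7 and 85.5 CPM in footpad tumors and 5.84 and 8.35 CPM in flank tumors. They thus reached 10 CPM on average only through the footpad tumors. The neutrophil markers Csf3r, Cxcr2 and Retnlg did not reach it and have no coefficient. Of the 7 melanocyte markers, Sox10 had 0.554, Mitf -0.93, and Dct, Tyrp1, Mlana, Pmel and Tyr lay between -0.677 and -0.534.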

How the data were processed

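RNA of 3 footpad and 3 flank B16F10 tumors was sequenced. The authors checked reads with FastQC 0.11.7, trimmed them with Trimmomatic, aligned them to mm10 with HISAT2 2.1.0 and deposited raw read counts per gene, without normalization. The FPKM values were also deposited, scaled by the authors for transcript length and depth. The labels name a TruSeq RNA kit and the guide of the stranded total RNA kit, and the study's methods name the latter.

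The counts were fitted with edgeR 4.0.16 in R 4.3.3 (TMM, filterByExpr, glmQLFit, glmQLFTest, Benjamini-Hochberg over 17210 genes). SE was approximated as the log2 fold change divided by the square root of F. A common biological coefficient of variation of 0.338 was fitted. Alternatives were DESeq2 1.42.0, limma 3.58.1 on log2(FPKM + 1) and log2(FPKM + 0.1), other scalings and filters, the replicate block and leaving out each tumor. Replicates of a site differed by more than sampling noise (chi-square per gene 62.3 to 578). Single values were compared by two-sided exact permutation tests in scipy 1.17.1. The fits were first tested on simulated data, in which every gene had the common coefficient of variation and edgeR called 152 of 200 changed genes. The members had a wider spread, with a median coefficient of 0.641. The simulation therefore does not show what the tests can detect for the members.

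The members and the gene lists were chosen with earlier results of these data known. Named genes were all members, the other genes of the mitochondrial genome, for each list those past the threshold (at most 4) and the extremes of fold change, abundant RNAs, and the 5 genes most correlated with the member mean. Coordinates are from RefSeq for GRCm38, matched by gene identifier for 45679 of 45777 genes. Sequences are from GENCODE M21 transcripts of the same build, and nuclear copies were searched with blastn (e-value 1e-10) among annotated pseudogenes. Proteins and promoters of the members were not used here.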

Additional observations from a re-analysis of the deposited data

How the results depend on the processing

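Of 160 recomputed fold changes of members, 16 for each, 159 stayed above 0 and 4 passed the threshold. The exception was ND6, which ranged from -0.11 without footpad replicate 1 to 1.98 without flank replicate 1. DESeq2 called 1 member (ND1), where it called 15.9% of all genes. An adjusted p under 0.1 by edgeR also gave 1 member, and the share of all genes at that threshold was not counted. Leaving out 1 tumor gave 0 to 3 members called, where 0% to 5.6% of all genes were called. The 3 were ND1, ATP6 and COX2, without footpad replicate 2, where 5.6% of all genes were called. Among nuclear-encoded subunits DESeq2 called 2 (Cox7a1 and Ndufb2), the replicate block 0, and leaving out 1 tumor 0 to 1, which was Cox7a1 without flank replicate 2 and Cox6a2 without footpad replicate 2. In the pathway lists 1 gene, Ptcd3, was called with DESeq2-style size factors in edgeR, with upper-quartile scaling and with at least 10 counts in every tumor, DESeq2 called 8, and leaving out 1 tumor called 0. Leaving out 1 tumor let the share of 0 to 2 members within the member reads separate the sites, with fewer tumors to overlap. The cause of the other changes was not tested. The range without 1 tumor was 0.944 to 3.53 percentage points for the member share, 0.796 to 2.86 for the distance to nuclear subunits and -1.38 to -0.441 for ND6 against the other members, with the sign kept.

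The labels do not say that a replicate number marks a mouse, so the numbers were not taken to pair the tumors. If each of the 3 mice in the study's legend carried both tumors, the tests without a block ignored that pairing. Deviations of same-numbered tumors correlated at 0.0544, -0.0965 and -0.115, which does not settle whether tumors shared mice. With the replicate block 0 members and 0 genes of the whole table were called, where the fit without it called 838. DESeq2 called 2729 genes. With 3 tumors a site, the exact tests could not pass 0.05.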

Other observations

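The tRNAs of the mitochondrial genome had few reads. Of 22, 13 were tested and 0 were called by edgeR or DESeq2, with 4 at an unadjusted p under 0.05, where 4.87% and 15.9% of all genes were called by these tools and 25.3% had such a p, at a median log2 fold change of 0.52. TrnS1, which overlaps the end of COX1 on the opposite strand, held most of their reads, from 2028 in flank tumor 3 to 21893 in footpad tumor 1, and its count was 1.02% to 1.16% of the COX1 count in every tumor, with a log2 fold change of 2.01. The other tRNAs together had 990, 550 and 577 reads in footpad tumors 1, 2 and 3 and 357, 574 and 437 reads in flank tumors 1, 2 and 3. TrnP and TrnT, neighbors beyond the end of CYTB, were above every flank tumor in all footpad tumors, as were 17.5% of all genes. The log2 fold change was 1.69 for each, with adjusted p of 0.15 and 0.161 by edgeR. TrnP had 84, 29 and 31 reads in footpad tumors and 15, 18 and 21 reads in flank tumors. TrnT had 62, 22 and 26 reads in footpad tumors and 10, 18 and 13 reads in flank tumors. In no other tested mitochondrial gene did the sites separate.

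Of 15 small or structural RNAs and hemoglobin genes listed as usually abundant, edgeR called 1, where it called 4.87% of all genes. DESeq2 called 3, where it called 15.9% of all genes. The 1 that edgeR called was Rny3, a Y RNA, which was scarce here at 2.92e-05% to 0.00013% of the reads. Its log2 fold change was -1.81, with an adjusted p of 0.0395 by edgeR. Rmrp, the RNA of the RNase MRP, took 0.454%, 0.688% and 0.442% of the reads in footpad tumors and 0.862%, 0.844% and 0.852% in flank tumors, without overlap, with an adjusted p of 0.115 by edgeR.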
